A study of Homo sapiens with 6 samples.

Results

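The response described here is that of p38α-knockout keratinocytes to the cytokine IL-1α: transcript levels in knockout cells given IL-1α for 4 h were set against those in knockout cells given PBS. Its members are the genes that reached at least 1 RPKM (reads scaled to exon length and to the library's mapped reads) in at least 1 of the 3 knockout libraries, which holds for 12578 of the 27945 genes of the deposited table. All cells were HaCaT, an immortalised human keratinocyte line grown in DMEM with serum, and RNA was sequenced from poly-A selected, stranded libraries. The study has 6 libraries: 1 wild-type library with PBS, 2 wild-type libraries with IL-1α, 1 knockout library with PBS and 2 knockout libraries with IL-1α. How MAPK14, the gene of p38α, was edited is not described in the labels, which also leave unsaid whether the knockout is 1 clone or whether the libraries came from separate cultures. Each p-value below therefore measures only the spread between these samples, which may be technical, and the unstimulated knockout side is a single library.

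The knockout libraries held 34967787 reads (PBS), 21889949 reads (IL-1α replicate 1) and 29770853 reads (IL-1α replicate 2), as recovered from the steps between low values. All 15 keratinocyte and epithelial markers checked, such as KRT5, KRT14, TP63 and CDH1, were at 1 RPKM or more in each knockout library, with a summed level of 3830, 3504 and 3763 RPKM in that order. Of 12 fibroblast, 10 endothelial, 14 leukocyte and 8 melanocyte markers no more than 1 per list reached 1 RPKM in any knockout library, and DCN, PECAM1, TYROBP and TYR, 1 from each list, were at 0 in all 3 libraries. The endothelial sum was 3.41, 10.8 and 2.05 RPKM, nearly all of it CDH5. The leukocyte sum was 6.0, 7.5 and 8.64 RPKM, mostly CD68. The 2 IL-1α libraries of the knockout stood further apart than those of the wild type. Across the 12578 genes the correlation of log2 levels was 0.9667 between the knockout IL-1α libraries and 0.9865 between the wild-type pair. IL-1α replicate 1 correlated with the unstimulated knockout library at 0.9813 and replicate 2 at 0.9571. Both IL-1α libraries are given separately for this reason, always in the order PBS, IL-1α replicate 1, IL-1α replicate 2.

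MAPK14 (chromosome 6, 35995454 to 36079013, hg19) read 11.3, 11 and 7.41 RPKM in the knockout libraries. In wild type it read 14.4 RPKM with PBS and, after IL-1α, 13.3 and 14.8 RPKM. The transcript was thus present in the cells labelled knockout, and a value per whole gene does not show a small deletion or a frameshift.

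IL-1α is an alarm cytokine that keratinocytes store and release on injury. It binds the receptor IL1R1 with its partner IL1RAP and, through the adaptor MYD88 and the IRAK kinases, activates the IκB kinases and the MAP kinases, p38α and JNK among them. Freed NF-κB dimers and AP-1 factors then turn on genes of inflammation. In epidermis these include chemokines that attract neutrophils, antimicrobial proteins, proteases of the plasminogen system and feedback inhibitors such as NFKBIA and TNFAIP3, while p38α is known to phosphorylate kinases and RNA-binding proteins that govern the stability of inflammatory mRNAs.

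The sequences below are stretches of promoters from RefSeq (GRCh38.p14, a different build from the hg19 of the expression table), shown because they carry the NF-κB-like and AP-1-like letters of genes whose transcripts were higher after IL-1α. Capitals mark GGANNTTCC, a form of the κB element, or the same element on the other strand, where it reads GGAANNTCC, in the first 6 and TGANTCA, the AP-1 element, in the last 3. All are written 5′ to 3′ on the strand of the gene and lie before its start. They come from chr4:73740438-73740526 (CXCL8, + strand), chr4:73869275-73869363 (CXCL1, + strand), chr14:35404782-35404999 (NFKBIA, - strand), chr6:137867152-137867240 (TNFAIP3, + strand), chr19:10270894-10270982 (ICAM1, + strand), chr9:128149238-128149326 and chr9:128149361-128149447 (LCN2, + strand), chr1:153057663-153057749 (SPRR2A, - strand) and chr1:153113666-153113752 (SPRR2F, - strand).
CXCL8 (κB): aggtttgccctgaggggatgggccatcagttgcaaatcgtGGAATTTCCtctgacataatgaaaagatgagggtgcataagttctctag
CXCL1 (κB): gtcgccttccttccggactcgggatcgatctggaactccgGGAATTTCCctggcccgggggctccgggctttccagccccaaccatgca
NFKBIA (κB): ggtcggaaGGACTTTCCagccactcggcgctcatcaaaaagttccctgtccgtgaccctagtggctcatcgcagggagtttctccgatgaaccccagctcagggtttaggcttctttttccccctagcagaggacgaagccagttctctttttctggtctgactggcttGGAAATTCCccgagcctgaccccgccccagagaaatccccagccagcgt
TNFAIP3 (κB): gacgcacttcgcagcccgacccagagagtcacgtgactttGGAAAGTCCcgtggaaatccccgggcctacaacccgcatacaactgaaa
ICAM1 (κB): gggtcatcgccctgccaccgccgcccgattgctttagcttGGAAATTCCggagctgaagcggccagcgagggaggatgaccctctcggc
LCN2 (κB): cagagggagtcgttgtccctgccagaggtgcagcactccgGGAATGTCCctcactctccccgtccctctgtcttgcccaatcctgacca
LCN2 (AP-1): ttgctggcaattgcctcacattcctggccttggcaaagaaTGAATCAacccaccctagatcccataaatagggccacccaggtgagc
SPRR2A (AP-1): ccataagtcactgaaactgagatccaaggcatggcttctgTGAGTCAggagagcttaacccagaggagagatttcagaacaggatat
SPRR2F (AP-1): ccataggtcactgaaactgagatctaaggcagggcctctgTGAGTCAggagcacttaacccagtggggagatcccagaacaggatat

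Both motifs were searched on both strands of the 250 bases before each gene's start. Of the 105 genes at least 2-fold higher in both IL-1α libraries (defined below), 68 had a promoter in the RefSeq table, and 18 of these (26.5%) held GGANNTTCC. The same letters stood in 389 of the 9395 knockout-expressed genes with a promoter (4.14%) and in 1060 of all 27305 promoters (3.88%). The broader NF-κB consensus, whose matches overlap these in part, was in 24 of the 68 (35.3%), in 11.8% of the expressed genes and in 9.57% of all promoters. TGANTCA was in 14 of the 68 (20.6%), in 4.10% of the expressed genes and in 6.60% of all promoters. It began 137 bases before the start in CXCL8 and 108 in SPRR1A. In SPRR2A and SPRR2F it began 197 and 196 bases before the start. Of the 7 genes at least 2-fold lower that had a promoter, 0 held GGANNTTCC and 1 held TGANTCA. A match of letters is a description of the sequence and does not show that a factor bound there.

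In limma (log2(RPKM + 0.5), Benjamini-Hochberg adjusted p under 0.05 over the 12925 genes tested) 9 of the 12578 genes passed as higher, which is 0.0716%, and 0 passed as lower (0.0%). Before adjustment 319 genes (2.54%) had p under 0.05 as higher and 134 (1.07%) as lower. The 9 are SPRR2D, SPRR2A, CXCL8, SERPINA3, IGFL1, S100A9, LCN2, BIRC3 and PLAT. Without any single IL-1α library of either genotype 0 genes passed, since then a single replicated pair is left to measure the spread. With the knockout libraries alone 0 passed as well, and with voom weights 2 passed.

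SPRR2A and SPRR2D encode small proline-rich proteins that transglutaminases weld into the cornified envelope of differentiating and stressed keratinocytes. SPRR2D (chromosome 1, 153012201 to 153013594) went from 0.253 RPKM, or 6 reads, to 26.8 and 24.6 RPKM (log2 fold change 5.12 ± 0.35 SE, limma adjusted p = 0.025). SPRR2A (chromosome 1, 153028596 to 153029988) went from 1.10 to 58.5 and 50.6 RPKM (5.10 ± 0.31, limma adjusted p = 0.025). In both the IL-1α libraries lay close together and far above the PBS library. In bulk RNA, more RNA per cell and more cells that make it cannot be told apart. SPRR2 genes are near-identical copies among which reads may be split, so the value of each is uncertain.

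CXCL8 draws neutrophils to inflamed epithelium. Its transcript (chromosome 4, 74606223 to 74609433) rose from 6.19 to 79.6 and 143.7 RPKM (4.00 ± 0.38, limma adjusted p = 0.0469). Replicate 2 held 1.80 times the CXCL8 of replicate 1 (exact 95% interval of the read ratio 1.73 to 1.88, which covers counting error only). BIRC3, a ubiquitin ligase that protects cells from death-receptor signals and is a standard NF-κB target (chromosome 11, 102188181 to 102210135), rose from 6.96 to 33.8 and 36.7 RPKM (2.26 ± 0.19, limma adjusted p = 0.0387). The 2 IL-1α values of BIRC3 were nearly equal.

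Among secreted defence proteins, LCN2, a lipocalin that withholds iron from bacteria (chromosome 9, 130911709 to 130915734), rose from 20.6 to 160.7 and 150.2 RPKM (2.89 ± 0.25, limma adjusted p = 0.0387). SERPINA3, an acute-phase inhibitor of neutrophil proteases (chromosome 14, 95078714 to 95090390), had 2 reads in the PBS library (0.036 RPKM) and 9.41 and 6.92 RPKM after IL-1α (4.00 ± 0.28, limma adjusted p = 0.025). The exact 95% interval of its read ratio to PBS ran from 71.5 to 2159 in replicate 1 and from 52.6 to 1588 in replicate 2. S100A9, a subunit of the metal-binding protein calprotectin (chromosome 1, 153330330 to 153333503), had 0 reads before stimulation and 3.51 and 4.29 RPKM, or 44 and 73 reads, after it (3.13 ± 0.24, limma adjusted p = 0.03). Against a floor of 3 reads in the PBS library S100A9 was at least 23.4-fold higher in replicate 1 and at least 28.6-fold higher in replicate 2. The fitted values of SERPINA3 and S100A9 depend on the pseudocount for lack of reads before stimulation.

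IGFL1, an IGF-like secreted protein of inflamed skin (chromosome 19, 46733009 to 46734500), rose from 1.31 to 20.7 and 14 RPKM (3.27 ± 0.29, limma adjusted p = 0.0387). PLAT, the tissue-type plasminogen activator (chromosome 8, 42032236 to 42065242), rose from 1.81 to 9.79 and 9.24 RPKM (2.12 ± 0.19, limma adjusted p = 0.0427). In all 9 genes both IL-1α libraries lay above the PBS library by at least 2.08 on the log2 scale, the value of PLAT in replicate 2.

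**Figure D1:**
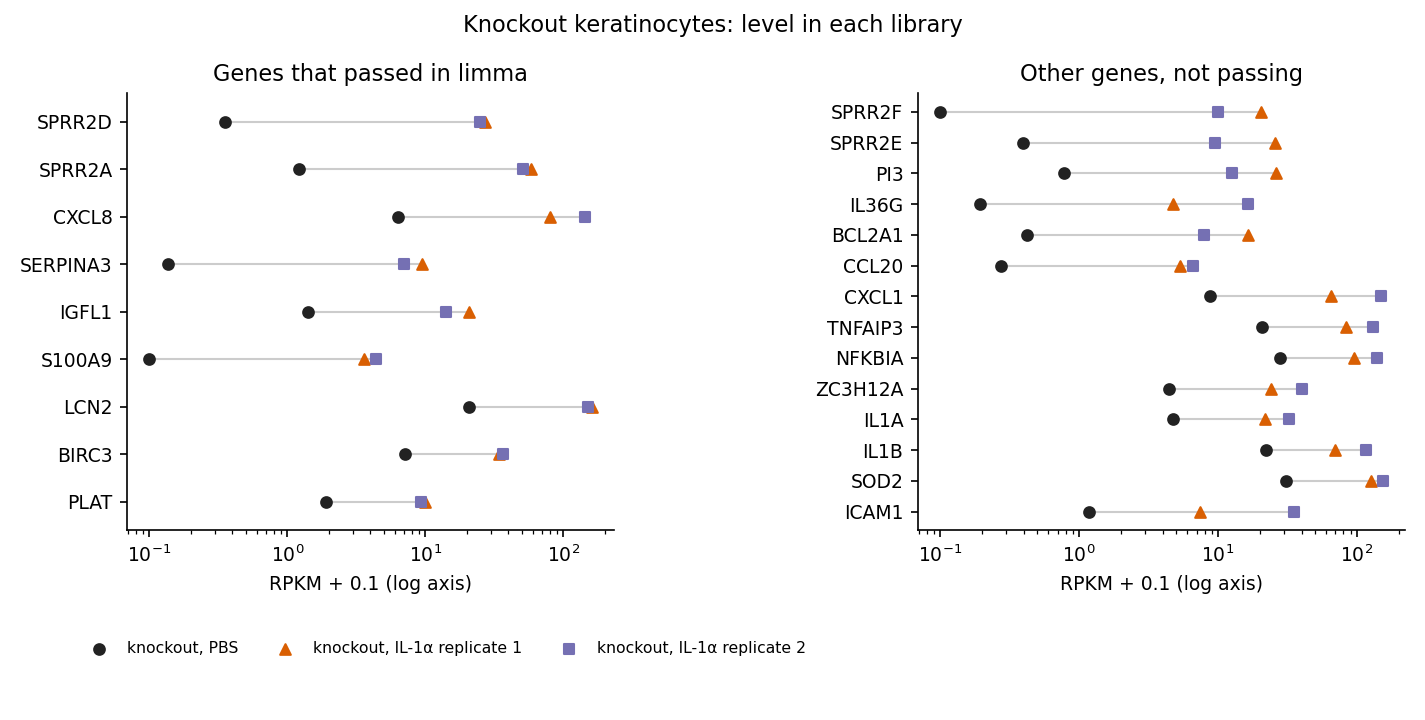
RPKM plus 0.1 on a log axis in each knockout library (circle PBS, triangle IL-1α replicate 1, square IL-1α replicate 2) for the 9 genes that passed in limma, left, and for 14 others, right. In SPRR2D, SPRR2A, LCN2, BIRC3 and PLAT the IL-1α symbols nearly coincide, while ICAM1 stood at 7.30 and 35.2 RPKM in the 2 IL-1α libraries.

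Size was also described without a test. A gene is called 2-fold higher here where both IL-1α libraries lay at least 1 log2 unit above the PBS library on log2(RPKM + 0.5), which held for 105 of the 12578 genes (0.835%). At least 2-fold lower in both were 35 genes (0.278%). Replicate 1 alone was at least 2-fold above PBS in 188 genes (1.49%) and below it in 80 (0.636%). Replicate 2 alone gave 321 (2.55%) and 440 (3.5%). At 4-fold, replicate 1 was above PBS in 47 genes (0.374%) and below it in 10 (0.0795%), and replicate 2 in 67 (0.533%) and 35 (0.278%). At 8-fold the genes above PBS numbered 15 (0.119%) and 17 (0.135%), and those below it 0 (0.0%) and 1 (0.00795%), which is DPYSL3. The median change over all 12578 genes was -0.03 in replicate 1 and -0.00 in replicate 2, with SDs of 0.35 and 0.54, and both libraries lay above PBS in 28.0% of genes and below it in 36.5%. Of the 105 genes 80 are protein-coding, beside 11279 of all 12578 genes. Another 20 carry microRNA or small nucleolar RNA symbols, short RNAs that a poly-A library measures poorly. Between the IL-1α libraries, the median of replicate 2 minus replicate 1 over 12378 genes was 0.02, with quartiles of -0.23 and 0.26. The gene lists that follow were chosen with earlier results of these data known, so their counts and medians are descriptions, to be read beside these shares and medians.

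**Figure D2:**
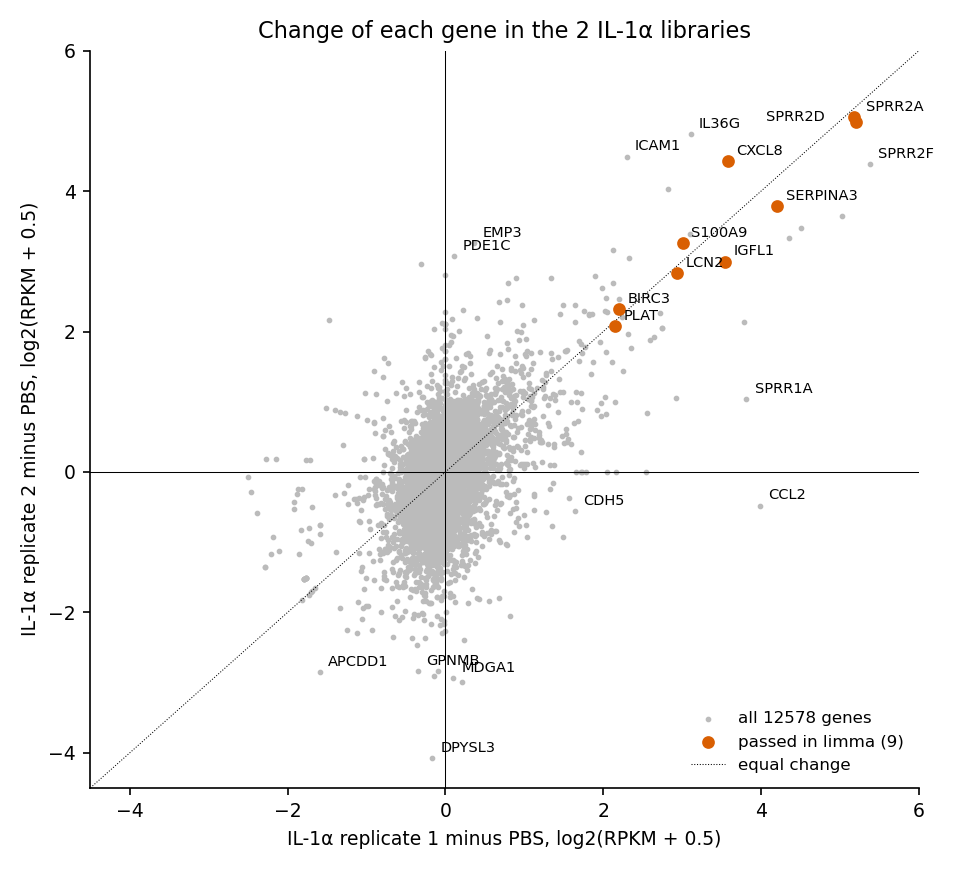
Change of each of the 12578 genes from the PBS library on log2(RPKM + 0.5), in IL-1α replicate 1 (horizontal) and replicate 2 (vertical), with the dotted line at equal change and the 9 genes that passed in limma as large points. Those 9 lie near the line at the upper right, the cloud is taller than wide (SD 0.54 against 0.35), and CCL2 and DPYSL3 lie far from the line.

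Among ligands and receptors of the IL-1 family 4 of 9 measured members were 2-fold higher and 0 passed (median change 0.77 in replicate 1 and 2.24 in replicate 2). IL1A, the stimulating cytokine itself, stood at 4.61, 21.7 and 32.5 RPKM (2.41, limma adjusted p = 0.0928). IL1B, its inflammasome-processed relative, stood at 22.1, 69.9 and 116.6 RPKM (2.0, limma adjusted p = 0.175). IL36G, an epidermal alarm cytokine of the same family, stood at 0.095, 4.62 and 16.2 RPKM (3.96, limma adjusted p = 0.244). The decoy receptor IL1R2, which binds IL-1 without signalling, stood at 1.48, 6.50 and 8.81 RPKM. In all 4 of these replicate 2 was higher than replicate 1, as it was in 8 of the 9 list members. IL18, also processed by the inflammasome, was not among the higher genes (91.5, 88.6 and 72.5 RPKM).

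The receptor chains that sense IL-1α were present throughout. IL1R1 stood at 3.38, 2.76 and 5.06 RPKM and IL1RAP at 9.88, 9.72 and 9.84 RPKM. Of 17 genes of proximal signalling 1 was 2-fold higher, the kinase IRAK2 (0.480, 2.75 and 2.68 RPKM, 1.72, limma adjusted p = 0.241), and the list's median change was 0.11 and 0.14 in the 2 libraries. IRAK1 stood at 79.3, 74.1 and 82.5 RPKM. MAP3K8, a kinase upstream of ERK, stood at 5.93, 11.4 and 10.3 RPKM.

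The NF-κB subunits and IκB proteins were mostly above PBS: 16 of 19 in both IL-1α libraries, 4 of them 2-fold higher and 0 passing, with a median change of 0.42 and 0.47. NFKBIA, which encodes IκBα and holds κB letters in its promoter as printed above, stood at 28.0, 95.5 and 139.7 RPKM (2.02, limma adjusted p = 0.116). NFKBIZ, a nuclear IκB protein needed for secondary target genes, stood at 4.34, 12.5 and 14.6 RPKM (1.53, limma adjusted p = 0.103). The precursor NFKB2 stood at 32.5, 66.4 and 103 RPKM and the TNFAIP3 partner TNIP1 at 42.7, 96.1 and 98.5 RPKM. Among 18 ubiquitin regulators and survival genes, BIRC3 passed, and 5 were 2-fold higher (median 0.52 and 0.50). TNFAIP3, the deubiquitinase that brakes NF-κB, stood at 20.7, 83.3 and 129.8 RPKM (2.30, limma adjusted p = 0.0928). BCL2A1, an anti-apoptotic BCL2 relative, stood at 0.324, 16.3 and 7.80 RPKM (3.84, limma adjusted p = 0.0759), and TNFAIP2 at 36.8, 171 and 205 RPKM (2.33, limma adjusted p = 0.0928). SOD2, the mitochondrial superoxide dismutase and another NF-κB target, stood at 30.7, 125.6 and 152.9 RPKM (2.16, limma adjusted p = 0.0928).

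All 6 CXC chemokines that attract neutrophils were above PBS in both libraries, 4 of them 2-fold higher and CXCL8 passing, with a median change of 2.05 in replicate 1 and 2.98 in replicate 2. CXCL1 stood at 8.71, 64.5 and 149 RPKM (3.42, limma adjusted p = 0.14), CXCL6 at 3.15, 13.1 and 24.8 RPKM and CXCL3 at 0.274, 2.87 and 6.44 RPKM. In 5 of the 6, CXCL8 among them, replicate 2 was the higher one. CXCL1, CXCL2 and CXCL3 are close copies, so reads may be split among them. Of 8 other chemokines 4 were 2-fold higher and 0 passed (median 2.16 and 1.01). CCL20, which attracts dendritic cells and T cells that carry CCR6, stood at 0.172, 5.26 and 6.53 RPKM (3.24, limma adjusted p = 0.0652). CCL5, which attracts T cells and monocytes, stood at 1.17, 9.55 and 5.65 RPKM and the interferon-linked CXCL10 at 0.165, 3.66 and 2.03 RPKM. CCL2, which attracts monocytes, was high in replicate 1 only (12.6, 206 and 8.87 RPKM).

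Colony-stimulating factors and epithelial cytokines were 2-fold higher in 4 of 13 with 0 passing (median 1.07 and 0.57). CSF2, which encodes GM-CSF, stood at 0.844, 5.57 and 6.04 RPKM (2.23, limma adjusted p = 0.0652). IL23A, the specific chain of IL-23, stood at 2.40, 7.67 and 14.5 RPKM, EBI3 at 0.051, 1.5 and 2.11 RPKM and CSF1 at 1.83, 5.17 and 5.55 RPKM. Of 18 TNF superfamily ligands and receptors 14 were above PBS in both libraries and 1, TNFRSF9, was 2-fold higher (0.057, 1.46 and 2.16 RPKM). CD70, a ligand that stimulates T cells, stood at 4.22, 7.09 and 20.3 RPKM.

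The small proline-rich proteins had the highest median of the plotted lists, 5.10 in replicate 1 and 4.01 in replicate 2. Of 6 members 5 were 2-fold higher, all but SPRR1B (6.70, 41.7 and 12.4 RPKM), and 2 passed. SPRR2F had 0 reads before stimulation and stood at 20.3 and 9.92 RPKM after it (4.88, limma adjusted p = 0.0531), at least 158-fold and 77.1-fold higher against the floor of 3 reads. SPRR2E stood at 0.296, 25.4 and 9.43 RPKM (4.33, limma adjusted p = 0.0928). SPRR1A stood at 1.98, 34.3 and 4.59 RPKM (2.43, limma adjusted p = 1). In each of the 6 replicate 1 was the higher library, opposite to the CXC chemokines.

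Other cornified envelope precursors did not share this pattern. Of 10, 0 were 2-fold higher, 5 were below PBS in both libraries and 2 above it (median -0.10 and -0.53). Involucrin (IVL), an early envelope scaffold, stood at 36.8, 29.7 and 12.7 RPKM, PPL at 72.4, 52.7 and 45.6 RPKM and the calmodulin-like CALML5 at 3.96, 2.35 and 0.577 RPKM. Simple, mucosal and suprabasal keratins were below PBS in both libraries in 10 of 12 (median -0.27 and -0.69). KRT13 of mucosal epithelia stood at 641, 419 and 179 RPKM and KRT10 of suprabasal epidermis at 40.1, 25.1 and 14.5 RPKM, and both had limma adjusted p = 1. The basal KRT14 stood at 1171, 947 and 982 RPKM. KRT17, which wounded epidermis induces, stood at 778, 747 and 267 RPKM. Keratins are close copies of one another, and their separate values are uncertain for that reason. The connexin gene GJB2 was the 2-fold higher member of 27 junction genes (11, 40.5 and 29.7 RPKM, limma adjusted p = 0.241).

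Antimicrobial and acute-phase proteins were 2-fold higher in 5 of 10, and LCN2 and SERPINA3 passed (median 1.41 and 1.25). PI3, the elastase inhibitor elafin, stood at 0.676, 26.2 and 12.6 RPKM (3.99, limma adjusted p = 0.0652), and serum amyloid SAA2 at 1.80, 9.48 and 6.28 RPKM (1.84, limma adjusted p = 0.244). Complement C3 stood at 6.65, 19.1 and 33.6 RPKM. Of 12 S100 genes S100A9 alone was 2-fold higher and passed. S100A7 stood at 0.395, 2.0 and 0.774 RPKM, and the abundant S100A11 at 918, 994 and 886 RPKM.

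Of 8 genes of the plasminogen system, which dissolves fibrin and frees matrix for migrating keratinocytes, 4 were 2-fold higher (median 1.08 and 1.0) and PLAT passed. The urokinase gene PLAU stood at 114, 236 and 275 RPKM (1.16, limma adjusted p = 0.368). Its inhibitor SERPINB2 stood at 111, 349 and 491 RPKM (1.89, limma adjusted p = 0.206), and SERPINE2 at 11.7, 25.6 and 25 RPKM. SERPINB1, which inhibits neutrophil elastase, was the 2-fold higher gene of 8 other clade B serpins (24, 58.1 and 59.2 RPKM). Of 15 matrix metalloproteases, TIMPs and related ADAM and ADAMTS proteases 1 was 2-fold higher (median 0.03 and 0.07), the matrix-degrading MMP7 at 0.102, 1.02 and 3.58 RPKM (2.05, limma adjusted p = 0.91). MMP9 stood at 2.03, 3.90 and 15.8 RPKM and the collagenase MMP13 at 1.40, 4.95 and 2.25 RPKM. LAMA3, a laminin chain of the epidermal basement membrane, stood at 157, 245 and 358 RPKM (0.92, limma adjusted p = 1).

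Interferon-stimulated genes, which restrict viruses, were above PBS in both libraries in 25 of 37, 3 of them 2-fold higher and 0 passing (median 0.54 and 0.38). The RNA sensors IFIH1 and DDX58 stood at 5.8, 12.8 and 12.8 RPKM and at 9.39, 19.0 and 21.4 RPKM. MX2 stood at 0.117, 1.12 and 0.821 RPKM and ISG20 at 1.63, 4.53 and 3.89 RPKM. Replicate 2 was above replicate 1 in 8 of the 37. Among interferon receptors, IRF and STAT factors 16 of 20 were above PBS in both libraries and 4 were 2-fold higher. The receptor chains of interferon-γ were 2 of those, IFNGR1 at 31.4, 80.7 and 96.8 RPKM (1.48, limma adjusted p = 0.103) and IFNGR2 at 16.7, 37.1 and 37.1 RPKM (1.13, limma adjusted p = 0.241). STAT5A stood at 0.077, 1.90 and 2.29 RPKM, and IRF9, the DNA-binding part of the interferon-activated ISGF3 complex, at 7.99, 17.8 and 24.3 RPKM. ICAM1, the integrin ligand on which leukocytes settle, stood at 1.09, 7.30 and 35.2 RPKM (3.39, limma adjusted p = 0.581).

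Genes of the p38 pathway itself had a median change of 0.00 in replicate 1 and 0.01 in replicate 2 over 21 members, with 0 of them 2-fold higher or lower. The other p38 kinases stood at 2.71, 3.07 and 2.66 RPKM (MAPK11, p38β), 9.81, 8.64 and 6.15 RPKM (MAPK12, p38γ) and 8.76, 7.98 and 5.14 RPKM (MAPK13, p38δ). MAP2K3, a kinase that activates p38, stood at 51.7, 84.2 and 105 RPKM (0.86, limma adjusted p = 0.641). The small heat-shock protein HSPB1, phosphorylated downstream of p38, stood at 261, 199 and 133 RPKM. AP-1 factors (11 genes, median 0.25 and 0.13), other immediate-early genes (19, median 0.13 and 0.29) and dual-specificity phosphatases (11, median 0.15 and -0.10) had 0 members 2-fold higher. FOSL1, the most abundant AP-1 gene here, stood at 172, 222 and 348 RPKM. Of 15 mRNA decay and stability factors 2 were 2-fold higher, both of the regnase family of RNA-cutting enzymes. ZC3H12A, which degrades inflammatory mRNAs, stood at 4.37, 23.9 and 39.8 RPKM (2.69, limma adjusted p = 0.0928) and ZC3H12C at 3.30, 7.14 and 11.7 RPKM. ZFP36, the p38-regulated mRNA decay protein tristetraprolin, stood at 8.82, 10.0 and 11.9 RPKM. In the prostaglandin list PTGS2, the inducible cyclooxygenase, stood at 3.15, 5.06 and 4.50 RPKM.

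**Figure D3:**
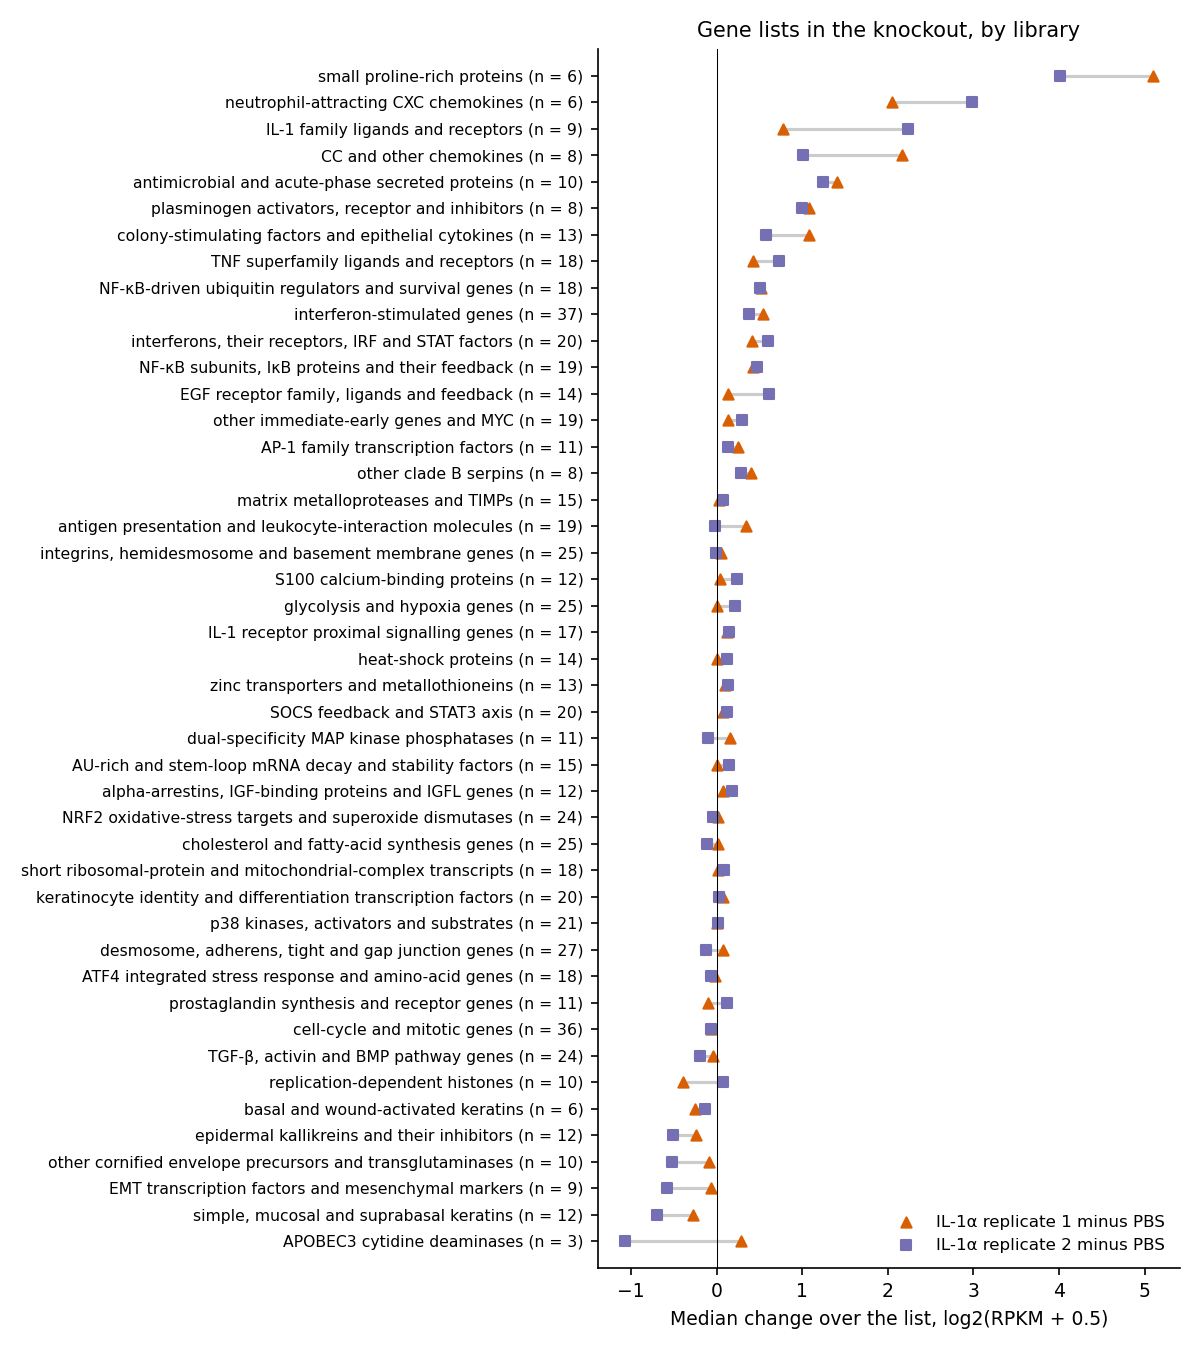
Median change from the PBS library on log2(RPKM + 0.5) over the measured members of each gene list, in IL-1α replicate 1 (triangle) and replicate 2 (square). The small proline-rich proteins lie at 5.10 and 4.01, most lists lie near 0, and replicate 2 lies further below 0 than replicate 1 for envelope precursors and for suprabasal and simple keratins.

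Cell-cycle genes had medians of -0.07 and -0.07 over 36 members, with the inhibitor CDKN1A (p21) the 2-fold higher one (24.9, 59.2 and 58.2 RPKM, limma adjusted p = 0.181). Cholesterol and fatty-acid synthesis (25 genes) lay at 0.01 and -0.12, NRF2 targets (24 genes) at 0.01 and -0.05, and ATF4 targets (18 genes) at -0.02 and -0.07. Glycolysis and hypoxia genes lay at -0.00 and 0.21, with 21 of 25 higher in replicate 2 than in replicate 1. Replication-dependent histones (10 genes) lay at -0.39 and 0.08. Some of them rest on few reads, such as HIST1H4H (18, 5 and 6), while HIST1H2BK, the most abundant, had 776, 475 and 923. The EGF receptor family with its ligands and feedback genes lay at 0.13 and 0.61, with 10 of 14 members above PBS in both libraries and 1, the ligand HBEGF, 2-fold higher (8.03, 20.1 and 22.2 RPKM, limma adjusted p = 0.161). The related ligand TGFA stood at 27.9, 43.8 and 62.9 RPKM. Metallothionein MT2A stood at 382, 825 and 728 RPKM. The transcription factor ETS1 stood at 34.9, 69.7 and 76.4 RPKM.

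Since the lists were chosen with earlier results of these data known, their share of the 2-fold higher genes does not measure how well they cover the response. In total 60 of the 105 genes that were 2-fold higher belong to a list and 45 to none, of which 20 are protein-coding. Among those 20 and named after their values were seen are OLR1, the lectin-like receptor of oxidised LDL (12.4, 65.3 and 43.1 RPKM, limma adjusted p = 0.161), and NINJ1, a membrane protein that acts in plasma membrane rupture (26.2, 85.5 and 79.7 RPKM, limma adjusted p = 0.0928). So are IL7R, the IL-7 receptor chain (9.52, 23.4 and 20.8 RPKM), and the GTPase regulator RAP1GAP (2.46, 8.01 and 9.27 RPKM, limma adjusted p = 0.0928).

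No gene passed as lower. Of the 35 genes that were 2-fold lower in both libraries 9 are protein-coding, beside 11279 of all 12578 genes. Another 14 are microRNA or small nucleolar RNA symbols, which a poly-A library measures poorly, and 10 are copies of ribosomal RNA. APCDD1, an inhibitor of WNT signalling at the membrane, stood at 19.0, 5.94 and 2.2 RPKM (-2.22, limma adjusted p = 0.472). DSG4, a desmosomal cadherin of differentiated epidermis and hair, stood at 6.71, 2.36 and 1.39 RPKM (-1.64, limma adjusted p = 0.292). Named after their values were seen, the differentiation-linked noncoding RNA TINCR stood at 11.5, 5.05 and 1.96 RPKM (limma adjusted p = 0.783) and the aryl hydrocarbon receptor target CYP1A1 at 3.03, 1.18 and 0.829 RPKM (limma adjusted p = 0.79). In all 4 of these replicate 2 was the lower IL-1α library. The ribosomal RNA copies are identical sequences that share their reads and count as 1 signal: each RNA28SN copy stood at 127, 36.4 and 43.9 RPKM (-1.66, limma adjusted p = 0.0928) and each RNA45SN copy at 48.3, 13.8 and 16.7 RPKM (-1.64, limma adjusted p = 0.0928). In wild type the RNA28SN copies stood at 121, 58.2 and 68.7 RPKM. Poly-A selection removes ribosomal RNA, and whether that step differed between libraries was not tested.

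The difference between the 2 knockout IL-1α libraries was itself described, as 1 library against 1 with no test. Of 12378 genes with at least 1 RPKM in 1 of the pair, 549 (4.44%) were at least 2-fold apart, 188 with replicate 2 higher (1.52%) and 361 with it lower (2.92%). At least 4-fold apart were 60 (0.485%), 29 higher (0.234%) and 31 lower (0.25%). The wild-type IL-1α pair had 144 of 12004 (1.2%) and 40 (0.333%). Among genes of at least 5 RPKM in either library, the knockout pair had 257 of 8802 (2.92%) at least 2-fold apart. At least 4-fold apart were 22 (0.25%). The wild-type pair had 29 of 8417 (0.345%) and 3 (0.0356%). The lower value of such a gene can still rest on few reads, such as 5 for NME4 in knockout replicate 1. In most of the 22 it was replicate 2 that stood away from PBS: 14 were lower in replicate 2 than in replicate 1, and in 11 of these only replicate 2 was at least 2-fold from PBS, while 8 were higher in replicate 2, with 6 of that kind.

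Among the genes lower in replicate 2, DPYSL3, which regulates the cytoskeleton (chromosome 5, 146770371 to 146833260), stood at 25.2, 22.4 and 1.02 RPKM, so that replicate 2 held 0.0455 times the level of replicate 1 (exact 95% interval 0.0384 to 0.0536, counting error only). MDGA1, a membrane-anchored adhesion protein, stood at 5.69, 6.13 and 0.310 RPKM and ZFP42, a zinc finger factor known from stem cells, at 8.42, 7.54 and 0.691 RPKM. SIRPA, the receptor of CD47, stood at 9.06, 8.46 and 0.845 RPKM and the potassium channel subunit KCNS3 at 5.86, 7.01 and 0.716 RPKM. The glycoprotein GPNMB stood at 129, 101 and 17.7 RPKM, the matrix protein tenascin C (TNC) at 14.5, 21.5 and 3.70 RPKM and the myosin light chain MYL9 at 9.87, 9.59 and 1.61 RPKM. In each of these replicate 2 was the low library, and in TNC, KCNS3 and MDGA1 replicate 1 also lay above PBS. CCL2 (chromosome 17, 32582296 to 32584220) and CDH5 (2.94, 10.3 and 1.84 RPKM) had the other pattern, in which replicate 1 was high and replicate 2 near PBS.

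Replicate 2 was the high library for NME4, a mitochondrial nucleoside diphosphate kinase (0.400, 0.228 and 6.52 RPKM), for the phosphodiesterase PDE1C (0.227, 0.286 and 5.62 RPKM) and for the membrane protein EMP3 (0.224, 0.430 and 6.42 RPKM). FOXE1, a forkhead factor, stood at 3.99, 3.55 and 17.9 RPKM, the basement membrane protein NID2 at 3.37, 2.74 and 11.6 RPKM and ECM1 at 5.03, 5.40 and 20.8 RPKM. IL1RL2, the receptor of IL-36, stood at 1.52, 1.47 and 6.37 RPKM and the mitophagy receptor BNIP3 at 2.11, 2.19 and 8.66 RPKM. ICAM1 and MMP9 differ from these in that replicate 1 was also above PBS. In wild type, in the same order of PBS and both IL-1α replicates, EMP3 read 3.94, 3.46 and 3.21 RPKM and PDE1C 0.062, 0.115 and 0.09 RPKM. All 3 measured APOBEC3 genes, cytidine deaminases that restrict viruses, were above PBS in replicate 1 and below it in replicate 2, APOBEC3B at 44.8, 58.8 and 23.9 RPKM and APOBEC3C at 48.2, 50.0 and 22.6 RPKM. The labels do not say whether the 3 knockout libraries came from 1 clone, so a difference between cultures or clones and a difference in the response to IL-1α cannot be told apart here. By transcript length, the median change over 4 classes ran from -0.05 to -0.03 in replicate 1 and from -0.04 to 0.03 in replicate 2.

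**Figure D4:**
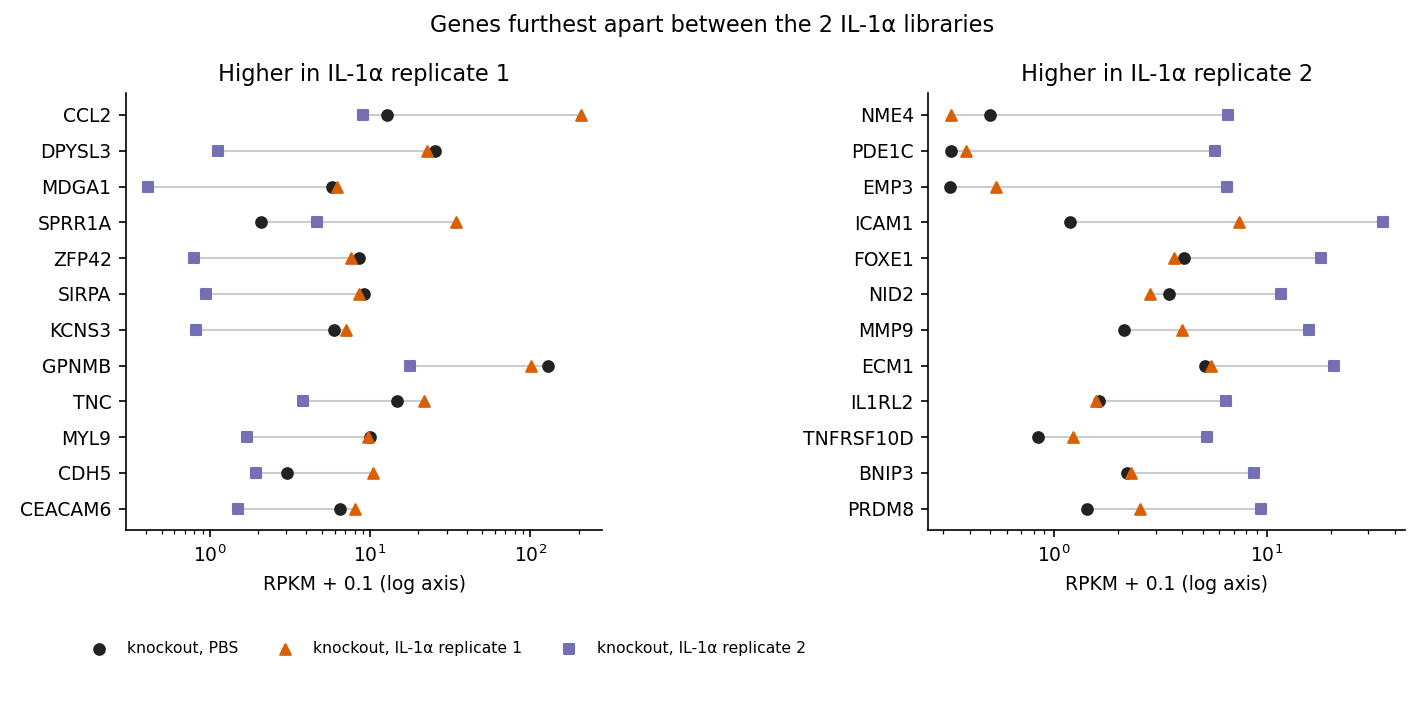
RPKM plus 0.1 on a log axis in each knockout library (circle PBS, triangle IL-1α replicate 1, square IL-1α replicate 2) for the 12 genes furthest apart in each direction between the 2 IL-1α libraries among those of at least 5 RPKM. In DPYSL3, MDGA1, ZFP42 and SIRPA on the left and in FOXE1, ECM1, IL1RL2 and BNIP3 on the right the circle and the triangle lie together and the square stands away.

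Of the 105 genes that were 2-fold higher in both libraries, 13 were at least 2-fold apart between the replicates, beside 549 of 12378 (4.44%) over all genes. At 5 RPKM or more it was 10 of 61, beside 257 of 8802 (2.92%). Replicate 2 was the higher one in 56 of the 105, and over 12378 genes the median of replicate 2 minus replicate 1 was 0.02.

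Whether the knockout response differed from that of wild-type cells was asked by the interaction in the same fit. In limma 0 of the 12578 genes passed (0.0%), and 518 (4.12%) had p under 0.05 before adjustment. S100A9 had the smallest p. In wild type it stood at 7.32, 10.2 and 9.71 RPKM, against 0 reads, 3.51 and 4.29 RPKM in the knockout (2.71, limma adjusted p = 0.75). In the other direction MIR6510 had the smallest p (-2.47, limma adjusted p = 0.75), on 18, 3 and 4 reads in the knockout libraries. CCL5 stood at 0.928, 33.0 and 28.4 RPKM in wild type, beside the knockout values given above (-2.21, limma adjusted p = 0.966). SPRR2E (-3.29), SPRR2F (-3.03) and CCL2 (-2.43) had larger negative interactions, each with limma adjusted p = 0.966. In wild type CCL2 read 9.75, 201 and 172 RPKM, close to knockout replicate 1 and far from replicate 2. For the 9 genes that passed in the knockout the interaction ran from -1.75 (SPRR2D) to 2.71 (S100A9). Each unstimulated side of this contrast is 1 library. The interaction subtracts the wild-type response, whose median ran from -0.52 in transcripts under 1000 bases to 0.08 in those of at least 4000. S100A9 measures 572 bases, and its wild-type change was 0.42. Whether transcript length bears on its interaction was not tested.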

How the data were processed

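Poly-A selected RNA of 6 HaCaT libraries was measured, 1 unstimulated and 2 IL-1α libraries per genotype. Per the submitters' processing notes, bcl2fastq (2.20.0.422), STAR and HOMER were used with hg19, the last 2 tools without stated versions. The table deposited by the authors holds RPKM per gene symbol, also headed FPKM per the file headers. Whether counting used strand is not given in the sources used here, so overlapping genes on opposite strands may share reads. Values were used as deposited. Of 908 genes annotated at more than 1 place, 671 were listed at 0 everywhere, so such genes were mostly not measured.

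For each library a depth was sought that turns low RPKM into whole counts within 0.1 read (99.98% to 100% of values), giving 16294012 to 34967787 reads. Rebuilt reads served for exact 95% intervals, for the floor of 3 reads and for voom weights. These cover counting error only.

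The 12925 genes that reached 1 RPKM in any of the 6 libraries were fitted with limma (3.58.1) under R (4.3.3) on log2(RPKM + 0.5). The model had a term per group and a mean-variance trend, and p-values were adjusted by Benjamini-Hochberg at 0.05. The spread came from the 2 replicated groups (2 residual and 4.2 prior degrees of freedom). Results are given for the 12578 genes expressed in the knockout. Log2 changes are on the log2(RPKM + 0.5) scale, which understates the change of low genes. The fit was also run on simulated data whose spread was taken from the wild-type IL-1α pair. The knockout pair stood further apart, so that run does not show how the fit performs on the knockout libraries.

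The members and the 50 gene lists were chosen with earlier results of these data known. Named genes were those that passed, the 12 largest rises and falls by the library that changed less, up to 4 changed members and the most abundant member of each list, the 12 genes furthest apart between the knockout IL-1α libraries in each direction, the p38 and IL-1 receptor genes, and the 5 smallest interaction p in each direction. In the 12 falls 10 were ribosomal RNA copies. SPRR2, CXC chemokine, keratin, serum amyloid and SERPINB copies may share reads. Alternatives covered the pseudocount, the filter, scaling, the variance model, transcript length, a replicate block and leaving out each replicate.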

Additional observations from a re-analysis of the deposited data

How the results depend on the processing

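The count of 9 passing genes, all higher, was the same with median-of-ratios or quantile rescaling and 10 with a pseudocount of 0.1 (8 shared). It was 5 with a pseudocount of 1, 4 without the variance trend, 2 with voom weights and 0 with the knockout libraries alone. Fewer or only knockout-expressed genes tested gave more: 49 at 5 RPKM (38 higher, among them the 9, and 11 lower, 10 of which are ribosomal RNA copies and the other MIR6510) and 20 with genes of 1 RPKM in a knockout library, all higher. Removing the length trend gave 20 (15 higher and 5 lower, the 5 being the RNA28SN copies of ribosomal RNA). With no filter on low values 65 passed, of which 61 were under 1 RPKM in the knockout and BIRC3 alone was higher, and 87 passed in the interaction, which gave 0 under every other setting. Leaving out 1 library gave from 0 to 0 passing genes. The deviations of the 2 genotypes between same-numbered libraries correlated at 0.008598. That value cannot decide whether the replicate numbers pair the libraries, since the knockout pair stood further apart for many genes. The fit with a replicate block gave 18 passing genes, the 9 included.

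Genes 2-fold higher in both libraries (105) numbered 68 at 5 RPKM, and 188 to 321 without 1 replicate. Genes 2-fold lower (35) numbered 20 with a pseudocount of 1, 17 at 5 RPKM, and 80 to 440 without 1 replicate. Genes 2-fold apart between the knockout IL-1α libraries (549) numbered 257 at 5 RPKM. Genes 4-fold apart (60) numbered 153 with a pseudocount of 0.1, 20 with a pseudocount of 1 and 22 at 5 RPKM. Of list medians under the alternatives 393 stayed within the spread and 56 moved beyond it, 27 of these on leaving out a knockout replicate. The spread here is the SD of a list's medians in the 2 IL-1α libraries. It is wide where these libraries disagree, so the counts do not show how stable a median is. Mesenchymal markers, well away from 0 at the main setting, changed sign from -0.39 to 0.002656 with no filter on low values. The median of the APOBEC3 genes went from -0.51 to 0.28 without IL-1α replicate 2, a change counted as within that list's spread. Sign changes of medians nearer 0 are counted with the others, such as prostaglandin genes from -0.06 to 0.12 without IL-1α replicate 1. The cause of these shifts was not tested. The size of change over all settings ran from 5.59 to 4.72 in SPRR2A, 4.43 to 3.58 in CXCL8, 2.95 to 2.84 in LCN2 and 2.34 to 2.19 in BIRC3, and, with few reads before stimulation, from 7.30 to 2.29 in S100A9 and 7.47 to 3.13 in SERPINA3. In IL-1α libraries of 16294012 to 29770853 reads a gene with 0 reads in the PBS library gives only a lower bound of its fold.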
